A study of Mus musculus with 24 samples.

Results

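Itln1 encodes intelectin-1, a secreted lectin of the intestinal epithelium, and it was the most abundant transcript of an immunology panel measured in the terminal ileum of C57BL/6 mice. It is 1 of the 547 genes in the table, and it was chosen by the largest mean share of all counts over the 24 mice, a measure that does not use the contrast between groups. The samples were total RNA of the terminal ileum at week 7. The Control group held 4 males and 3 females, the PAT1 group likewise 4 males and 3 females, and the PAT3 group 4 males and 6 females. PAT stands for pulsed antibiotic treatment with tylosin, a macrolide. PAT1 pups received 1 course, through the milk of the treated dam while nursing, PAT3 pups received 3 courses in all, the later ones after weaning, and Control mice received no tylosin. The study asked whether a single course early in life changes the host in the way that several courses do. Each litter as a whole entered 1 group, and mice were caged by sex and group. Effects of litter and cage thus cannot be told apart from treatment, and the p-values below treat mice as independent.

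Intelectins bind carbohydrate groups that occur on the surface of microbes and are rare on mammalian cells. In the small intestine, intelectin-1 is made and secreted by goblet cells and Paneth cells, the mucus-producing and the antimicrobial secretory cells of the epithelium. Intelectins are also known to be induced in epithelium by the type 2 cytokines IL-4 and IL-13, as in worm infection. RefSeq lists 1 intelectin gene, Itln1, in its mouse assembly GRCm38.p6. In whole ileum, fewer cells that make a transcript and less of it per cell cannot be told apart.

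The 100 bases before the RefSeq start of Itln1 are shown because this is the promoter next to the most counted transcript of the panel. They lie on the minus strand of chromosome 1, at chr1:171535295-171535394 of GRCm38.p6.

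Itln1: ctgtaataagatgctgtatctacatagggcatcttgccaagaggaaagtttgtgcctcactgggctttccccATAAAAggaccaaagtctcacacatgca

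The capitals mark ATAAAA, which spans the bases 28 to 23 before the start and was searched for after the sequence had been seen. The same letters, on either strand, occur in 7.07% of 32851 RefSeq promoter windows of this length, and the TATA box letters TATAAA, which Itln1 lacks in this window, occur in 5.56%. A match in letters is a description only.

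Itln1 was the highest gene in 22 of 24 mice and took 12.9% of all panel counts on average (SD 3.64, n = 24). In nCounter data a count is 1 hybridized probe pair, so an order between genes also carries how well each probe pair binds. B2m, the light chain of MHC class I, followed at 7.77%, and Pigr, through which IgA crosses the epithelium, at 5.91%. Ceacam1, an adhesion molecule of enterocytes, took 3.76% and Cd74, a chaperone of MHC class II known as the invariant chain, 3.40%. Shares from 2.86% down to 1.47% belonged to the chemokine Ccl25, to Ctnnb1 (beta-catenin), to the MHC class II chain H2-Aa, to the efflux pump Abcb1a and to the MHC class I chain H2-K1.

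Both mice in which Itln1 did not rank first were Control males. In Control replicate 3 it took 9.26% of counts and ranked 2, behind Pigr with 9.55%. In Control replicate 4 it took 5.85% and ranked 5, behind Pigr, B2m, Cd74 and Ceacam1. The lead over the next gene was widest in PAT3 replicate 5, where the Itln1 count was 3.91 times that of Pigr, and it was narrowest among mice with Itln1 first in PAT1 replicate 2, where it was 1.01 times that of B2m.

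**Figure D1:**
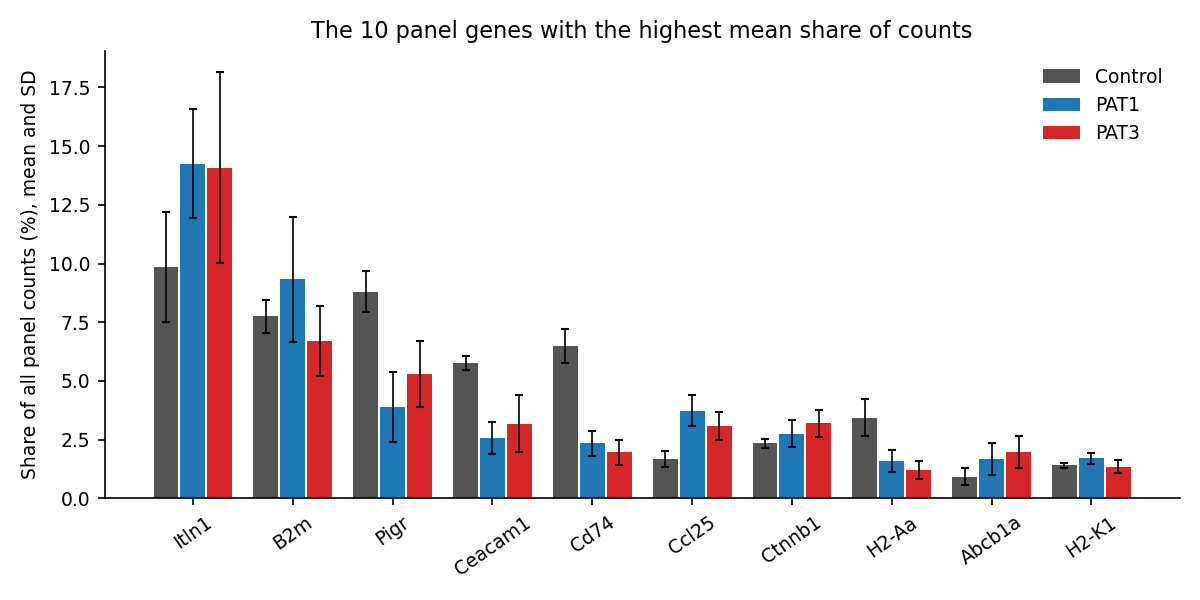
Mean share of all panel counts (y axis, %, bars from 0, error bars SD) of the 10 genes with the highest mean share, for 7 Control, 7 PAT1 and 10 PAT3 mice. Itln1 had the highest mean share in each group, at 9.86% in Control, 14.2% in PAT1 and 14.1% in PAT3, while Pigr, Ceacam1, Cd74 and H2-Aa were lower in both PAT groups than in Control.

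The level of Itln1 was higher on average in both PAT groups than in Control, but on the scale of the deposited values neither difference passed the test. On the log2 scale of normalized counts, the Control mice lay at 14.57 (lowest), 15.74 (median) and 16.31 (highest). The PAT1 mice lay at 15.97, 16.13 and 16.57, and the PAT3 mice at 15.10, 16.07 and 16.54. All 7 PAT1 mice were above 5 of the 7 Control mice, yet the highest Control mice fell among the PAT mice, so the groups overlapped.

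The mean log2 level of Control mice was 15.65 ± 0.55 (SD, n = 7), beside 16.16 ± 0.20 in PAT1 (SD, n = 7) and 16.06 ± 0.39 in PAT3 (SD, n = 10). In a limma fit over all 547 genes, PAT1 minus Control was 0.51 on the log2 scale (SE 0.21), a 1.42-fold difference with a 95% confidence interval of 1.05 to 1.93 and an adjusted p of 0.102. PAT3 minus Control was 0.41 (SE 0.20), a 1.33-fold difference with an interval of 1.003 to 1.76 and an adjusted p of 0.112. PAT3 minus PAT1 was -0.10 (SE 0.20), a ratio of 0.932 with an interval of 0.704 to 1.23 and an adjusted p of 0.776. By p-value, Itln1 stood at place 130 of 547 genes for PAT1 minus Control and at place 234 for PAT3 minus Control.

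The verdict on the level turned on the scaling and on single mice. The mean of the samples' median log2 values was lower than in Control by 0.14 in PAT1 (shift of -0.14) and by 0.19 in PAT3 (shift of -0.19). With each sample centred on its own median, the Itln1 differences were 0.65 (adjusted p = 0.0369) and 0.60 (adjusted p = 0.0208), and both passed the test. Without Control replicate 4, the mouse with the lowest level, the limma difference was 0.33 for PAT1 (adjusted p = 0.266) and 0.23 for PAT3 (adjusted p = 0.332). Without PAT3 replicate 4, the lowest PAT3 mouse, the limma difference was 0.52 for PAT3 (adjusted p = 0.0312). Without Control replicate 5, the highest Control mouse, the limma difference was 0.62 for PAT1 (adjusted p = 0.0418). Leaving out the lowest PAT3 mouse or the highest Control mouse raises the difference by construction, so these p-values add nothing on the level.

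As a share of all counts, Itln1 was higher in both PAT groups than in Control. The share ran from 5.85% over a median of 10.04% to 13.8% in Control, from 11.6% over 13.5% to 17.5% in PAT1 and from 6.98% over 13.1% to 21.9% in PAT3. The mean share in PAT1 was 14.2% ± 2.32 (SD, n = 7) against 9.86% ± 2.34 in Control (SD, n = 7), a ratio of geometric means of 1.47 with an adjusted p of 0.0105 over the 3 pairs of groups (two-sided exact permutation test). All 7 PAT1 mice exceeded the Control mean, and 3 exceeded the highest Control mouse. The mean share in PAT3 was 14.1% ± 4.07 (SD, n = 10), a ratio of 1.41 to Control with an adjusted p of 0.0447 by the same exact test, and 9 of 10 mice exceeded the Control mean. PAT3 and PAT1 differed by a ratio of 0.961 (adjusted p = 0.785, exact permutation test).

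A share also depends on the genes it is divided by. The 4 genes that follow Itln1 in abundance together took 28.8% ± 1.20 of counts in Control (SD, n = 7), 18.1% ± 1.496 in PAT1 (SD, n = 7) and 17.1% ± 1.44 in PAT3 (SD, n = 10). Of these, 3 fell in both PAT groups in the limma fit, with adjusted p-values of 0.0166 or less. The log2 differences in PAT1 and PAT3 were -1.32 and -0.90 for Pigr, -1.26 and -1.05 for Ceacam1, and -1.54 and -1.85 for Cd74. With these 4 genes left out of the total, Control mice had an Itln1 share of 13.8% ± 3.18, PAT1 mice one of 17.4% ± 2.89 and PAT3 mice one of 16.9% ± 4.65. The difference from Control was then 0.35 on the log2 scale for PAT1 (adjusted p = 0.129) and 0.28 for PAT3 (adjusted p = 0.280) by the exact permutation test, and neither passed. The PAT3 share call was also lost when any one of 13 mice was left out, with adjusted p-values up to 0.110 without Control replicate 4.

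**Figure D2:**
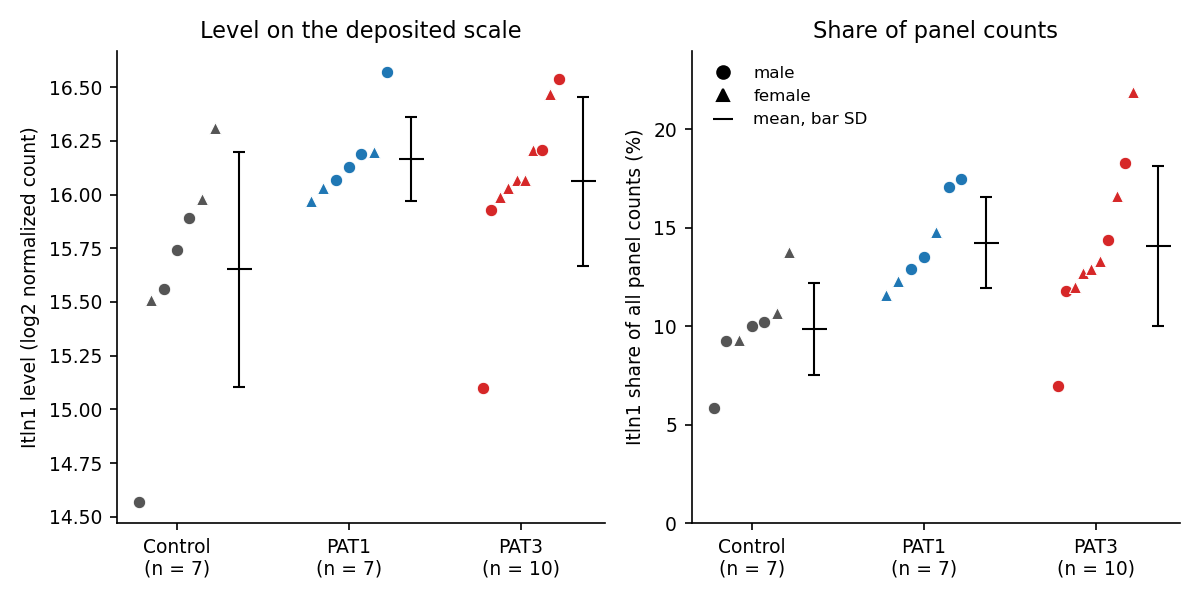
Itln1 in each mouse as log2 normalized count (left) and as share of all panel counts in % (right), by group, with circles for males, triangles for females and the mean with SD beside each group. The Control mice reach from 14.57 to 16.31 on the log2 scale, the PAT1 mice keep within 15.97 to 16.57, and 1 PAT3 mouse lies apart at 15.10.

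A difference between the sexes in Itln1 did not pass the test. In Control the mean log2 level was 15.44 ± 0.60 in males (SD, n = 4) and 15.93 ± 0.40 in females (SD, n = 3). In PAT1 it was 16.24 ± 0.22 in males (SD, n = 4) and 16.07 ± 0.12 in females (SD, n = 3), and in PAT3 it was 15.95 ± 0.62 in males (SD, n = 4) and 16.14 ± 0.18 in females (SD, n = 6). With treatment in the fit, female minus male was 0.17 (SE 0.16, limma adjusted p = 0.789). Fitted on males alone, PAT1 minus Control was 0.79 and PAT3 minus Control 0.50, and on females alone they were 0.13 and 0.21. The test of whether treatment and sex interact gave a limma p of 0.309 (adjusted p = 0.578), so that a difference between the sexes was not shown.

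Counting error of Itln1 was at most 0.577% of the count in any mouse, and the spread between mice holds other technical variation besides that between animals. The SD of the log2 level was 0.55 in Control, larger than that of 470 of 547 genes, and larger than that of 46 of the 50 genes with the highest levels. In PAT1 it was 0.20, larger than that of 25 genes, and in PAT3 it was 0.39, larger than that of 290 genes. The median SD over all genes ran the other way, from 0.31 in Control to 0.44 in PAT1 and 0.38 in PAT3.

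The narrower spread in PAT1 did not pass a test. On the log2 scale, the mean absolute deviation from the group median came to 0.362 for Control, 0.126 for PAT1 and 0.238 for PAT3. The two-sided exact permutation p was 0.158 for PAT1 against Control, 0.462 for PAT3 against Control and 0.424 for PAT3 against PAT1 (adjusted p = 0.462 for each). Without PAT1 replicate 4, the highest PAT1 mouse, the deviation in PAT1 was smaller than in Control by a difference of -0.29 (unadjusted p = 0.0221, exact permutation test). Leaving out the mouse farthest from its group narrows that group by construction, so this p adds nothing on the spread. The 25 other alternatives tried gave the verdict of the main test.

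**Figure D3:**
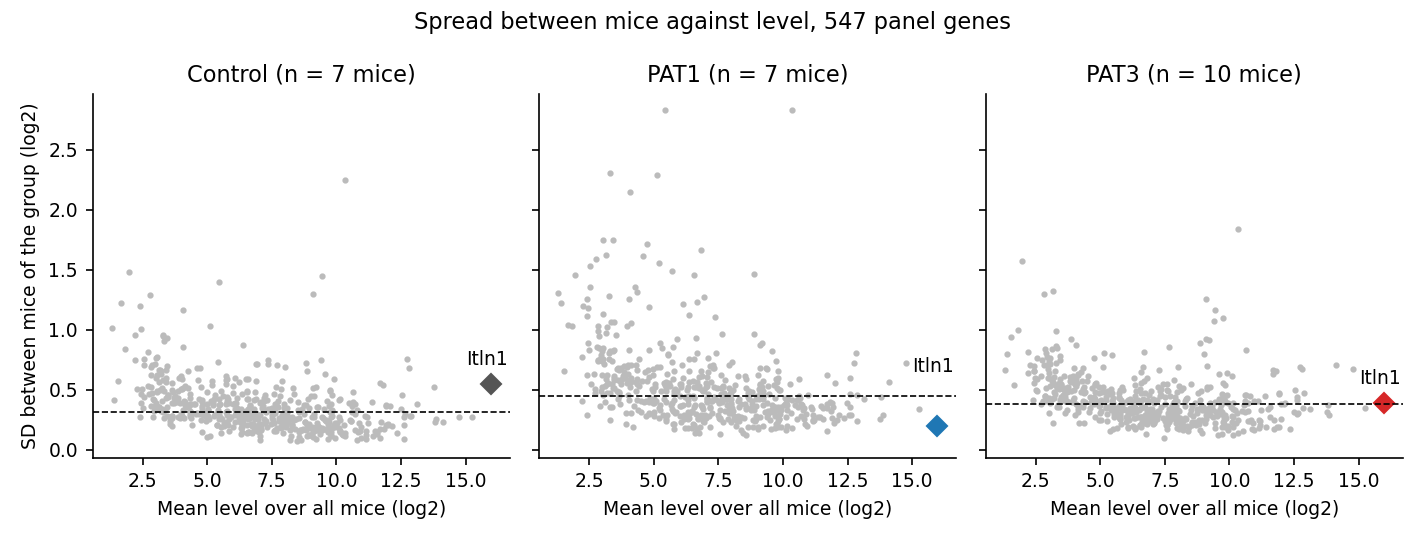
SD between the mice of a group (y axis, log2) against the mean level over all 24 mice (x axis, log2) for 547 genes, with 1 panel per group, Itln1 as a diamond and the median SD as a dashed line. Itln1 lies above the median SD in Control (0.55 against 0.31), below it in PAT1 (0.20 against 0.44) and near it in PAT3 (0.39 against 0.38).

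Within groups, and among genes with a mean log2 level of at least 5, the highest Pearson correlations with Itln1 were those of Pla2g2a and Ccl6. After the group mean was removed from each gene, 3 of 546 genes (0.549%) correlated with Itln1 at an adjusted permutation p under 0.05, over 24 mice. These correlations share the scaling of each sample, and Itln1 itself did not follow the total count (r = 0.04) or the size factor (r = -0.10). Pla2g2a encodes the secreted phospholipase of Paneth cells, an antimicrobial enzyme that C57BL/6 mice lack because of a frameshift, although the transcript is still made. Ccl6 is a chemokine, and which cells of the ileum made it was not tested.

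Pla2g2a gave Pearson's r of 0.83 (p = 3e-05, adjusted p = 0.00819, permutation test) and Spearman's rho of 0.60 (p = 0.00419, adjusted p = 0.259, permutation test). Ccl6 gave r = 0.77 (p = 3e-05, adjusted p = 0.00819, permutation test) and rho = 0.67 (p = 5.7e-04, adjusted p = 0.156, permutation test). The third gene, H2-Ea-ps, is an MHC class II pseudogene with a mean log2 level of 3.92, near the floor like the cytokine Il13 (3.97). It gave r = 0.78 (adjusted p = 0.0109, permutation test) and rho = 0.70 (adjusted p = 0.156, permutation test). It is named after its value was seen, since the naming rule left out genes this low. Both Control replicate 4 and PAT3 replicate 4 were the lowest mice of their groups for Itln1, for Pla2g2a and for Ccl6. In Control replicate 4, Pla2g2a stood at 9.29 and Ccl6 at 10.47 on the log2 scale, and in PAT3 replicate 4 they stood at 9.07 and 10.69. Their total counts, 591962 and 551339, were close to the middle of all mice.

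The correlations rested in part on these mice, which were also those farthest from the median of Itln1. Without them r was 0.68 for Pla2g2a (p = 0.00164, adjusted p = 0.895, permutation test) and 0.51 for Ccl6 (p = 0.0184, adjusted p = 0.980, permutation test), and 0 of 546 genes passed, with 19 at an unadjusted permutation p under 0.05. Leaving out mice for their distance in Itln1 narrows its range and tends to lower any r, so the loss of calls is partly built in. By group, Pla2g2a had an r of 0.83 (Control), 0.62 (PAT1) and 0.88 (PAT3), and r with Ccl6 was 0.90, 0.44 and 0.85. None of these single-group values passed the adjustment over 546 genes.

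The genes next in order did not pass. They were C4bp (r = 0.67), Cfi (r = 0.63) and Cd74 (r = 0.62), the complement inhibitor C4b-binding protein, complement factor I and the invariant chain. The lowest correlations were with Il1rn (r = -0.66), the antagonist of the interleukin-1 receptor, Ikzf2 (r = -0.63), the transcription factor Helios, and the nuclear receptor Pparg (r = -0.60). Il18r1, a chain of the IL-18 receptor, and Blnk, an adaptor of B cell signalling, followed at -0.54 and -0.47, and their adjusted p-values, like those of the others named here, were above the threshold of 0.05. Pparg lay next to it (adjusted p = 0.0519, permutation test) and passed in 14 of 33 alternatives, 13 of them with 1 mouse left out. PAT3 replicate 4 was the highest PAT3 mouse for Il1rn, Ikzf2, Pparg, Il18r1 and Blnk. Control replicate 4 was the highest Control mouse for each of these genes except Blnk. Both mice were the lowest of their groups for Itln1, and a fit with 1 mouse left out keeps at least 1 of them. Among the gene lists, the mean of the goblet and Paneth cell genes, here Pla2g2a and Nod2, had r = 0.51 with Itln1 (adjusted p = 0.246 over 11 relations, permutation test), and that of the mature enterocyte genes r = 0.10 (adjusted p = 0.914, permutation test).

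Although Itln1 and Pla2g2a varied together among the mice of a group, their group means were displaced from Control in opposite directions. Pla2g2a was at 10.05 ± 0.46 in Control (SD, n = 7), 9.60 ± 0.19 in PAT1 (SD, n = 7) and 9.82 ± 0.40 in PAT3 (SD, n = 10). Its limma differences from Control were -0.45 (adjusted p = 0.134) and -0.23 (adjusted p = 0.346), so neither passed. The ratio of both genes within a mouse does not depend on how the sample was scaled, and it was examined after these values were seen, so it is given with no test.

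Itln1 exceeded Pla2g2a by 38.6-fold (lowest), 46.8-fold (median) and 64.4-fold (highest) in Control. In PAT1 the ratio was 79.5, 96.9 and 112, and in PAT3 it was 62.4, 74.4 and 97.6. All 7 PAT1 mice had a higher ratio than all 7 Control mice, and in PAT3 the lowest mouse lay just below the highest Control mouse. Against 537 other genes with a count above 0 in every mouse, the ratio of Itln1 was higher without overlap in PAT1 than in Control for 31 genes (5.77%), Pla2g2a among them, and in PAT3 than in Control for 30 genes (5.59%). Its mean log2 ratio was higher than in Control for 472 genes (87.9%) in PAT1 and for 445 (82.9%) in PAT3. The median log2 difference over the 537 genes was 0.50 in PAT1 and 0.38 in PAT3, so a higher mean ratio was not particular to Pla2g2a. The mean log2 ratio over Pla2g2a was 5.60 ± 0.31 in Control (SD, n = 7), 6.56 ± 0.17 in PAT1 (SD, n = 7) and 6.25 ± 0.19 in PAT3 (SD, n = 10). Left out in turn, no single mouse moved the PAT1 difference outside 0.90 to 1.02 or the PAT3 difference outside 0.59 to 0.71, and it was 0.92 and 0.68 in males and 1.01 and 0.65 in females.

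The ratio of Itln1 to Ccl6 showed no such separation, with medians of 27.4 in Control, 26.8 in PAT1 and 28.8 in PAT3 and ranges that overlapped throughout. Ccl6 itself rose in PAT1 by 0.42 on the log2 scale (SE 0.14, limma adjusted p = 0.0393), and its difference in PAT3 was 0.21 (adjusted p = 0.223). The PAT1 call was lost in 14 of 42 alternatives, such as the fit that adjusts for the size factor (0.30, adjusted p = 0.100) and that without Control replicate 4 (0.34, adjusted p = 0.111), and the difference was 0.14 in females.

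**Figure D4:**
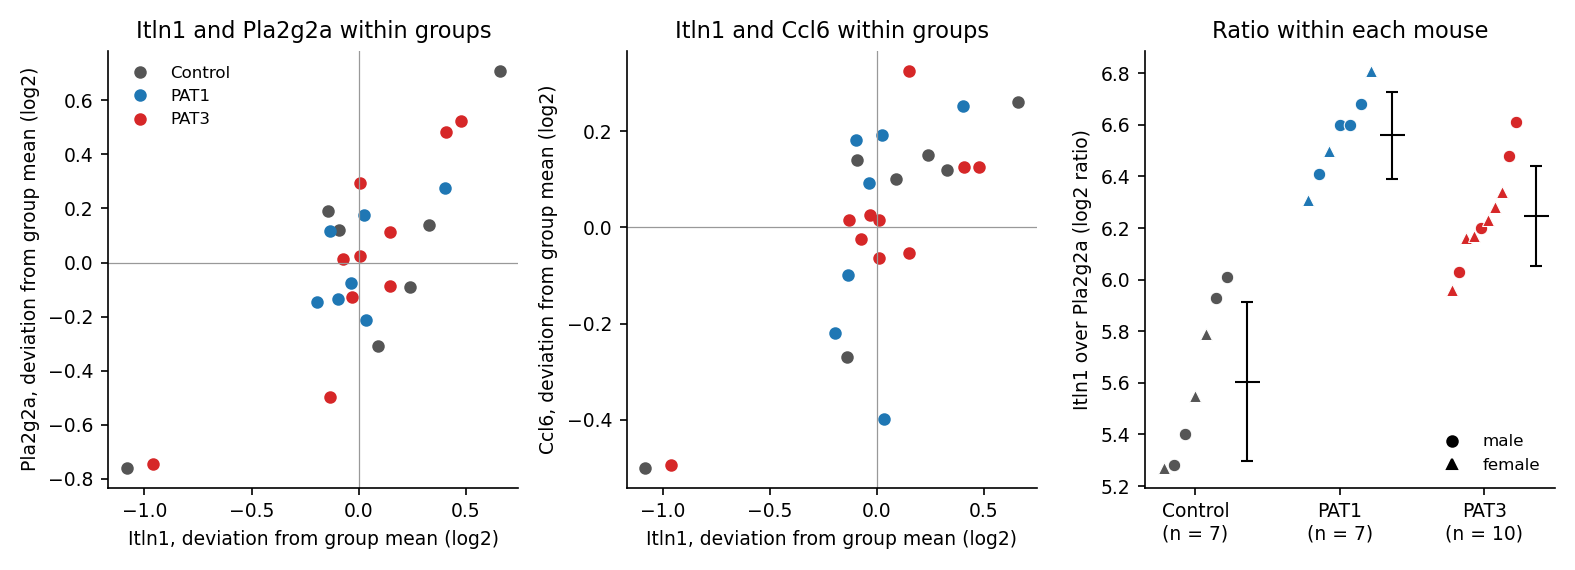
Deviation of Itln1 from its group mean (x axis, log2) against that of Pla2g2a (left) and Ccl6 (middle) in 24 mice, and the log2 ratio of Itln1 over Pla2g2a in each mouse by group with mean and SD (right; circles males, triangles females). The lowest points at the left edge are Control replicate 4 and PAT3 replicate 4, and the ratios of all 7 PAT1 mice, from 6.31 to 6.81, lie above those of all Control mice, from 5.27 to 6.01.

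The panel holds few other genes of the cells that make intelectin-1. Of 18 other goblet and Paneth cell genes on the list, Pla2g2a and Nod2 were in the table, and the mucin and defensin genes that define these cells were not in it. Nod2, a sensor of bacterial cell wall fragments that Paneth cells express, fell in PAT1 by 0.63 (adjusted p = 0.00359) and differed by -0.28 in PAT3 (adjusted p = 0.115). In Nod2 the counts were low, with medians of 26 in Control and 14 in PAT1. So on the goblet and Paneth list 1 of 2 genes was lower in PAT1 and none was called in PAT3, where the share of lower genes over all 547 was 11.2% for PAT1 and 17.9% for PAT3, and that of higher genes 7.31% and 13.9%. Between PAT3 and PAT1, 4.2% of all genes were called in either direction, and neither Itln1, Pla2g2a nor Nod2 was among them.

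The other epithelial genes moved in both directions. Of 7 mature enterocyte genes, 3 were higher and 1 lower in PAT1, and 2 were higher and 1 lower in PAT3. The lower gene was Ceacam1 in both groups (-1.26 in PAT1 and -1.05 in PAT3). Over all genes 7.31% were higher in PAT1 and 13.9% in PAT3, and 1 lower gene of 7 in each group is near the 11.2% and 17.9% found there. Ccl25, the chemokine that draws lymphocytes to the small intestine, rose by 1.13 in PAT1 (SE 0.20, adjusted p = 3.43e-04) and by 0.81 in PAT3 (SE 0.18, adjusted p = 0.00154). Mme, a peptidase of the brush border, rose by 1.90 in PAT1 (adjusted p = 0.0153), as did Btnl1, a butyrophilin-like protein of enterocytes, by 0.94 (adjusted p = 0.0194). Of 5 genes of the epithelium in general, 3 were lower in both PAT groups, namely Pigr, Nos2, the inducible nitric oxide synthase (-2.43 and -3.05), and Nox1, an NADPH oxidase (-2.28 and -1.34), while Cd9 was higher in PAT3 by 0.52.

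Of the 16 type 2 cytokine genes in the table, 2 were higher in PAT1, 3 were higher in PAT3 and none was lower, beside 7.31% and 13.9% higher over all genes, which is near the same shares. Il17rb, a chain of the receptor for IL-25, rose by 0.53 (adjusted p = 0.00501) and 0.74 (adjusted p = 3.62e-05), and Ccl11, the eosinophil chemokine eotaxin, by 0.77 (adjusted p = 0.00902) and 0.84 (adjusted p = 0.00154). Stat6, the transcription factor through which IL-4 and IL-13 signal, rose in PAT3 by 0.43 (adjusted p = 0.0197) and differed by 0.32 in PAT1 (adjusted p = 0.152). The cytokines themselves were near the floor, with median counts per mouse of 14 to 20 for Il13, 9 to 10 for Il4 and 3 to 4.5 for Il5, and none of the 3 was called. The receptor chains Il4ra and Il13ra1 were not called either, at -0.31 and 0.03 in PAT1 and -0.22 and -0.13 in PAT3. The mean of the list had r = -0.20 with Itln1 within groups (adjusted p = 0.736, permutation test). That mean weighs the cytokines near the floor as much as the other genes, so it cannot decide whether type 2 genes vary with Itln1. The list's median difference was 0.35 in PAT1 and 0.34 in PAT3, beside 0.01 and 0.03 over all genes. That median also gives the cytokines near the floor equal weight, so it cannot decide whether type 2 genes rose as a set.

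The list of lectins and soluble proteins that bind microbes also holds membrane receptors such as Msr1. Of its 13 other genes in the table, none was higher, while 2 fell in PAT1 and 1 fell in PAT3, which is near or below the 11.2% and 17.9% over all genes. Msr1, a scavenger receptor of macrophages, fell by 0.61 (adjusted p = 0.00517) and 0.46 (adjusted p = 0.0155). Mbl2, a mannose-binding lectin, fell by 1.40 in PAT1 (adjusted p = 0.0125) with median counts of 11 in Control and 3 in PAT1, and it differed by -0.88 in PAT3 (adjusted p = 0.0644).

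Markers of other cells in the tissue were read against the same shares, 7.31% higher and 11.2% lower over all genes in PAT1 and 13.9% and 17.9% in PAT3. Of 15 T cell genes, 3 fell in PAT1 and 10 fell in PAT3, among them Cd3e (-0.90 and -1.38) and Cd8a (-0.94 and -1.84). The sum of the normalized counts of the T cell genes was 1199 to 1382 in Control, 789 to 1578 in PAT1 and 581 to 929 in PAT3. Of 12 stroma and vessel genes, 1 was higher in PAT1 and 6 in PAT3, and of 14 myeloid genes, 1 and 2 were lower, which is below the shares over all genes. Of 18 B cell genes, 1 was higher in PAT1, and in PAT3 1 was higher and 2 were lower. The sum of the normalized counts of the B cell genes reached 9202 in 1 PAT1 mouse against at most 3988 in Control. With the B cell mean as a covariate, Itln1 differed by 0.41 in PAT1 (adjusted p = 0.202) and 0.49 in PAT3 (adjusted p = 0.0719), and with the enterocyte mean by 0.47 (adjusted p = 0.187) and 0.38 (adjusted p = 0.153). Beyond these covariates, the part of cell composition in the level of Itln1 was not tested.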

How the data were processed

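RNA of the terminal ileum was hybridized to the NanoString nCounter GX mouse immunology panel. The authors normalized counts with DESeq2 (version not given in the sources used here) and deposited log2 values, 1 column per mouse. Groups and sex came from the sample labels, and replicate numbers follow sample order and pair no animals. A figure legend of the study divides the same number of mice differently among the groups, so that the group of at least 1 PAT mouse is uncertain. The labels and the study's methods name different RNA kits.

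On the linear scale, the values of a sample were whole multiples of 1 step. Of 13128 values, 100% of those above 0 came out whole within 0.01 counts, with totals of 171671 to 782392 per mouse. Shares and ranks use these counts. The log2 values of all genes were fitted with limma 3.58.1 (lmFit, eBayes, R 4.3.3), in 1 fit of 24 mice, with Benjamini-Hochberg adjustment over 547 genes per contrast and a threshold of 0.05, and no filter. Shares and spread used two-sided exact permutation tests (scipy 1.17.1), and correlations of deviations from group means used 100000 permutations within groups, adjusted over 546 genes. The scripts were tested on simulated data.

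Itln1 and the gene lists were chosen with earlier results of these data known. The genes named were those ranked 2 to 10 in share, the 5 highest and 5 lowest correlations at a mean log2 level of at least 5, all goblet, Paneth and type 2 genes, and up to 4 genes per other list with the smallest F-test p. Alternatives were other scalings, filters, pseudocounts, tests, covariates, one sex, and each mouse left out. The share without the 4 next genes and all share and ratio alternatives were added after the data were seen. Promoter letters came from RefSeq GRCm38.p6.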

Additional observations from a re-analysis of the deposited data

Results flagged for a closer look

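Single mice stood apart from their group in 3 of 15 groups of values examined. Chance alone gives about 1 in 20 when such groups are independent. These share mice and genes, and Pla2g2a and Ccl6 were chosen for their correlation with Itln1, so the count cannot be compared with that rate. PAT1 replicate 4, a male, had an Itln1 log2 level of 16.57, above the other PAT1 mice at 15.97 to 16.20. PAT3 replicate 4, a male, had an Itln1 log2 level of 15.10, below the other PAT3 mice at 15.93 to 16.54. The same mouse had the lowest Ccl6 log2 level of its group, 10.69, with the others at 11.12 to 11.51. Each was marked by a gap to the nearest mouse that was large against the range of its group. None of 6 genes tested, Itln1 and the 5 genes with the highest correlations among those at a mean log2 level of at least 5, had a treatment effect that differed between the sexes at an adjusted p under 0.05.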

How the results depend on the processing

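On the level of Itln1, both differences from Control kept their sign under every scaling, filter, pseudocount, test, covariate and subset tried. PAT1 minus Control passed the test when samples were centred on their median (0.65), when counts were scaled by their total (0.55) and, over mice left out (0.33 to 0.62), in the fit without Control replicate 5 alone. PAT3 minus Control passed under the same scalings (0.60 and 0.50) and, over mice left out (0.23 to 0.52), without PAT3 replicate 4 alone. Leaving out such an extreme mouse raises the difference by construction. Of the scalings, that by total count turns the level into the share of counts up to a constant, so its passes repeat the share result. The adjusted p of the F-test was 0.0253 and 0.0446 under these scalings and 0.0446 to 0.323 over mice left out. The methods' test gave adjusted p-values of 0.276 and 0.285. PAT3 minus PAT1 changed sign with the B cell mean as a covariate (0.0758), in females (0.0741) and over mice left out (-0.16 to 0.0045, the latter without PAT3 replicate 4). Under quantile normalization it is 0, since the highest gene takes the same value in the 22 samples where Itln1 ranks first. These include every PAT mouse, so under that scaling the differences from Control could not be negative, and their sign there says nothing about stability.

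The share differences from Control were 0.35 and 0.28 (log2) without the next 4 genes, 0.81 and 0.49 in males and 0.21 and 0.39 in females, none of them past the threshold by the exact permutation test. These subsets hold 3 to 6 mice per group, and the smallest p they allow is 0.0286 before adjustment in males, the value that PAT1 against Control had, and 0.1 for PAT1 and 0.0238 for PAT3 in females, so that they say nothing about stability. Over mice left out the shares differed by 0.43 to 0.64 for PAT1 and 0.38 to 0.60 for PAT3. The PAT3 minus PAT1 share was 0.18 in females and -0.14 to 0.0482 over mice left out. The rank of Itln1 stayed 1 by median and in each group.

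The number of genes correlated with Itln1 was 0 by Spearman's rho (43 at an unadjusted permutation p under 0.05), 0 without the mice farthest from the median, 0 in Control, 0 in PAT1, 1 in PAT3, 8 with counts scaled by their total and 0 to 5 over mice left out, with 0 reached without Control replicate 4 or PAT3 replicate 4. In PAT1 alone, r was 0.32 with Il1rn and 0.23 with Blnk. Pparg, not past the threshold in the main setting, passed in 14 of 33 alternatives (adjusted p = 0.0218 to 0.0491). The difference in spread was -0.30 to -0.10 for PAT1 minus Control and -0.21 to 0.0107 for PAT3 minus Control over mice left out, and the latter was 0.0733 with counts scaled by their total. The cause of these changes was not tested.

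No paired analysis was made, because the groups hold different mice from different litters and the design forms no pairs. With 7 to 10 mice per group, the 95% intervals given with the level are the limit of precision. Depth was no limit for Itln1, with at least 30075 counts in each mouse, but it was for Nod2, Mbl2, H2-Ea-ps and the cytokines.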
